A study of Mus with 21 samples.

Results

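The genes followed here were 9 interferon regulators and nucleic acid sensors, Stat2, Irf1, Irf7, Irf9, Ifih1, Ddx58, Dhx58, Zbp1 and Rnf213, read by symbol from a count table of 18806 genes. All 9 genes were found and all 9 passed the filter on low counts, so no member is missing below. The libraries came from full-thickness wounds, 8 mm across, punched in the dorsal skin of wild-type (WT) C57BL/6 mice and collected on day 4; the methods of the study describe female mice 8 weeks old with a wound on each side of the back. Each of 7 groups held 3 libraries, numbered as biological replicates, and the methods assign separate mice to each group. The methods give 3 mice to each group and collection on several days. Whether the 3 libraries of a group came from 3 mice, and whether the paired wounds of a mouse were pooled, is not stated.

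The 6 treated groups wore a scaffold of GelMA, a light-cured gelatin hydrogel, set to pH 6.4, 7.4 or 8.4 and loaded with acidic (aFGF) or basic (bFGF) fibroblast growth factor. Each is named by its pH and its growth factor, from 6.4-GelMA/aFGF to 8.4-GelMA/bFGF. The control group was wounded in the same way and wore no hydrogel, so hydrogel and growth factor cannot be told apart where a treated group is compared with control. The question of the design was whether the pH of the wound bed changes what each growth factor does there.

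Interferons are secreted proteins that put cells on an antiviral footing. Type I interferons signal through Janus kinases to a transcription factor complex that holds STAT2 and IRF9, known as ISGF3, which switches on interferon-stimulated genes. IRF7 and IRF1 are transcription factors of the same family as IRF9: IRF7 amplifies type I interferon production, and IRF1 is induced early by interferon. RIG-I (Ddx58), MDA5 (Ifih1) and LGP2 (Dhx58) form the RIG-I-like family of cytosolic RNA sensors, and ZBP1 senses Z-form nucleic acids and can trigger necroptosis. RNF213 is a very large ubiquitin ligase with antimicrobial activity. Genes of all these kinds are themselves raised by interferon, and in wounded skin interferon is known to be made by infiltrating immune cells, plasmacytoid dendritic cells among them.

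The libraries held 34362558 to 37817833 counts, with a median of 36771838. Levels are given as CPM, the counts of a gene relative to all counts of its library, scaled by the trimmed mean of M-values (TMM), and values of a group are always listed in the order of replicates 1, 2 and 3. The lowest count of any of the 9 genes in a library was 695, for Dhx58, where counting error alone is 3.79% of the value. Keratinocyte and fibroblast markers were high in every library, as the skin label says. Single libraries carried transcripts of other tissues: the cartilage gene Col2a1 stood at 195 CPM in 7.4-GelMA/aFGF replicate 3 against at most 0.965 CPM elsewhere, the liver gene Alb at 138 CPM in 8.4-GelMA/aFGF replicate 2 against 14.1 CPM, and the steroid-synthesis gene Hsd3b1 at 397 CPM in 8.4-GelMA/bFGF replicate 2 against 0.236 CPM. Values without these 3 libraries are given where a difference moved by over 1.5 times or changed direction. These are bulk tissues, in which fewer cells of a type and less RNA per cell cannot be told apart.

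Compared per transcript length, as FPKM (fragments scaled to gene length and library size), Irf7 was the most abundant of the 9 genes, with a median level of 90.5 FPKM over the 21 libraries. Zbp1 (28.3 FPKM), Irf9 (26.2 FPKM) and Irf1 (21.97 FPKM) followed. Stat2 (16.9 FPKM), Dhx58 (14.3 FPKM), Rnf213 (14.0 FPKM) and Ddx58 (12.7 FPKM) lay close together, and Ifih1 was lowest at 7.56 FPKM. Each gene was well above the detection limit in every wound.

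The genes also differed in how far they ranged. The highest library exceeded the lowest 10.1-fold for Irf1, 8.87-fold for Zbp1 and 7.81-fold for Irf7. The range was 5.08-fold for Dhx58, 4.76-fold for Rnf213, 4.10-fold for Stat2 and 3.72-fold for Ifih1. Irf9, at 2.42-fold, and Ddx58, at 2.32-fold, were the steadiest, so that among the 3 RNA sensors LGP2 transcript varied most and RIG-I transcript least.

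**Figure D1:**
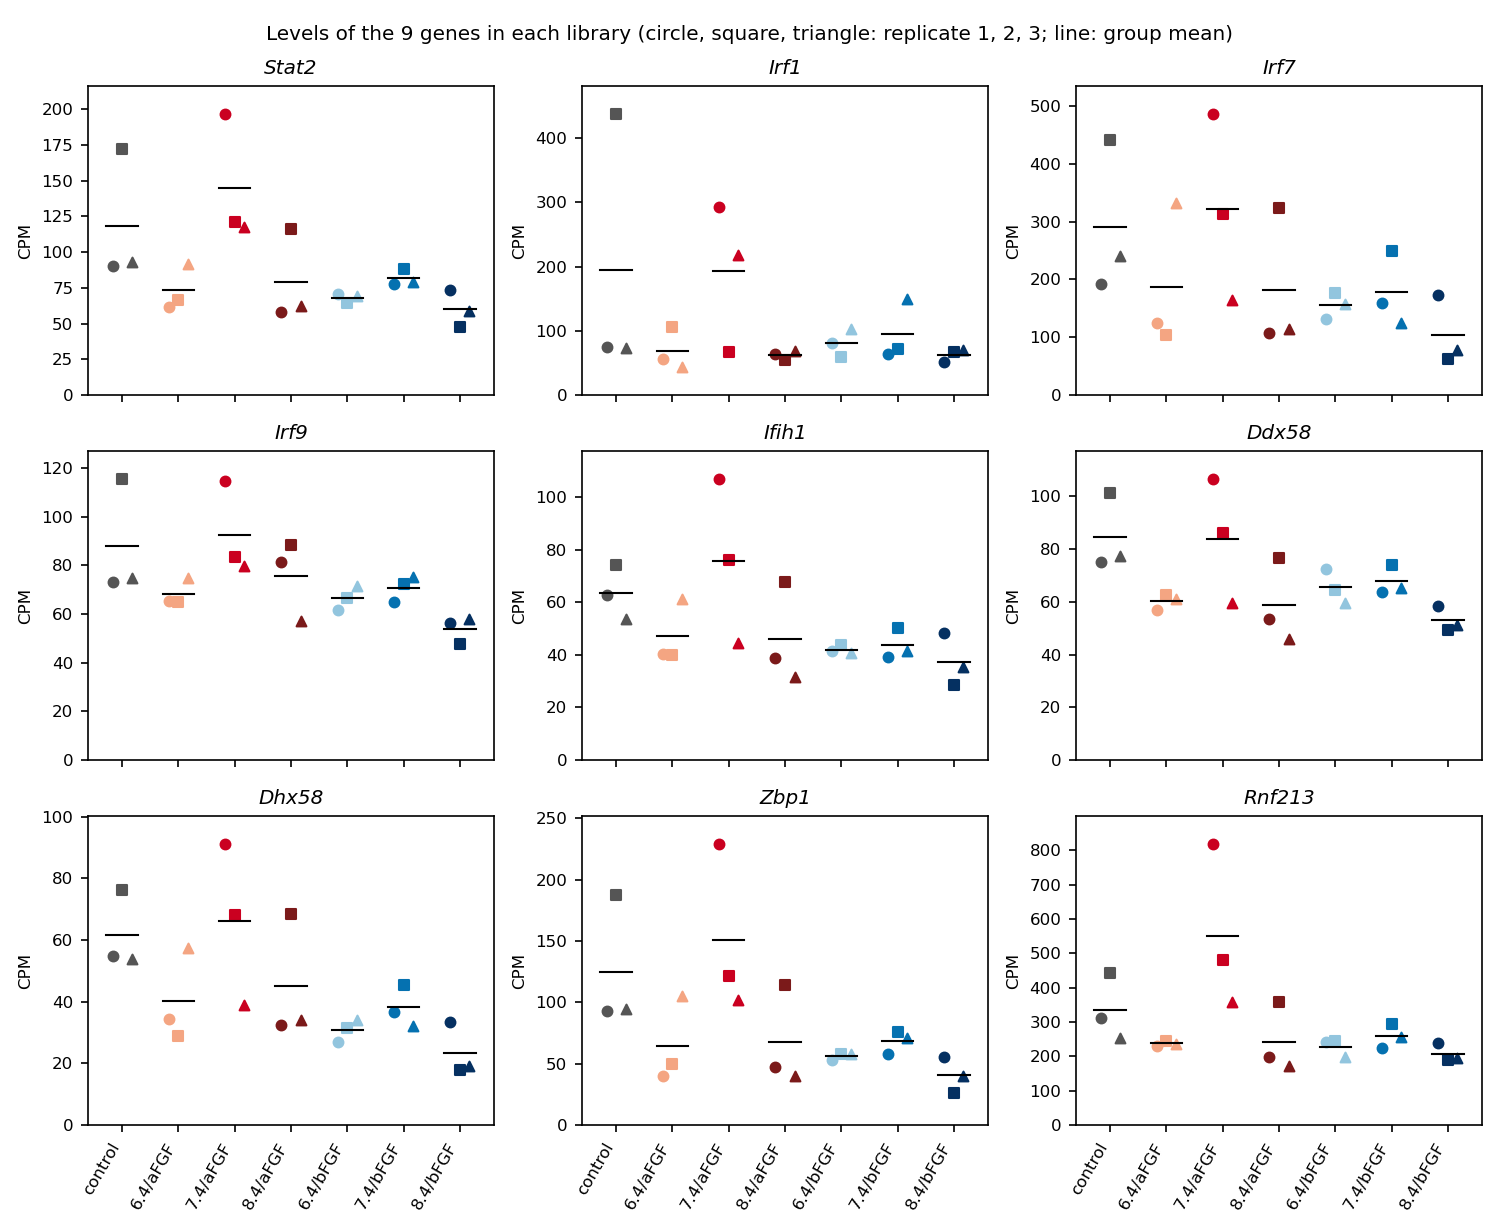
Level of each of the 9 genes (CPM, linear axes from 0) in the 21 libraries by group; group names leave out "GelMA", symbols mark replicates 1, 2 and 3, and lines are group means. Control replicate 2 and 7.4-GelMA/aFGF replicate 1 sit at or near the top of every panel, and the steepest range is that of Irf1, 10.1-fold.

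Over all genes tested, the median share of log2 variance between groups was 39.0%. Stat2, the partner of IRF9 in ISGF3, had the largest share of its log2 variance between groups among the transcription factors, 64.7%. Its level was 196, 121 and 118 CPM in 7.4-GelMA/aFGF, 90.1, 172 and 92.8 CPM in control and 77.9, 88.5 and 78.9 CPM in 7.4-GelMA/bFGF. It was 61.5, 66.5 and 91.7 CPM in 6.4-GelMA/aFGF, 58.0, 116 and 62.5 CPM in 8.4-GelMA/aFGF, 70.8, 64.3 and 69.0 CPM in 6.4-GelMA/bFGF and 73.4, 47.9 and 58.8 CPM in 8.4-GelMA/bFGF. All 3 libraries of 7.4-GelMA/aFGF lay above every one of the 15 libraries of the other hydrogel groups. The margin was small, 118 CPM against 116 CPM in 8.4-GelMA/aFGF replicate 2, and the share of all genes separated this way was not computed. Control overlapped the acidic and alkaline aFGF groups.

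Irf9, the DNA-binding member of ISGF3, was also highest in 7.4-GelMA/aFGF and control, over a narrower range. It stood at 115, 83.3 and 79.8 CPM in 7.4-GelMA/aFGF and 73.3, 115 and 75.0 CPM in control, where replicate 2 held the highest value of all. It stood at 56.2, 47.7 and 58.1 CPM in 8.4-GelMA/bFGF, and these 3 libraries lay below all those of 6.4-GelMA/bFGF (61.5, 66.7 and 71.4 CPM) and 7.4-GelMA/bFGF (65.1, 72.1 and 75.1 CPM). Of all genes, 7.17% were wholly lower in 8.4-GelMA/bFGF than in 7.4-GelMA/bFGF, and the share against 6.4-GelMA/bFGF was not computed. The lowest of these libraries, replicate 2, was the one with Hsd3b1 transcripts. Control was overlapped by 6.4-GelMA/aFGF (65.4, 64.9 and 74.8 CPM) and by 8.4-GelMA/aFGF (81.2, 88.3 and 57.2 CPM), and the latter reached into every other group.

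For Irf7, which amplifies type I interferon production, 43.6% of the log2 variance lay between groups, against a median of 39.0% over all genes tested. Its level was 192, 441 and 239.7 CPM in control, 486, 313 and 164 CPM in 7.4-GelMA/aFGF and 125, 104 and 332 CPM in 6.4-GelMA/aFGF. It was 107, 324 and 115 CPM in 8.4-GelMA/aFGF and 159, 249.8 and 124 CPM in 7.4-GelMA/bFGF, while 6.4-GelMA/bFGF held 132, 177 and 157 CPM and 8.4-GelMA/bFGF 174, 62.2 and 77.1 CPM. Every neighbouring pair of groups in the order of means overlapped, and 6.4-GelMA/aFGF replicate 3 and 8.4-GelMA/aFGF replicate 2 stood well above the other libraries of their groups. The SD within groups, pooled over the 7, was 0.71 on the log2 scale for Irf7, against a median of 0.29 over all genes tested.

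For Irf1, 4 libraries stood out and the other 17 lay between 43.5 and 106 CPM. The level was 74.6, 437 and 72.8 CPM in control and 293, 67.5 and 219 CPM in 7.4-GelMA/aFGF. It was 64.2, 71.2 and 149 CPM in 7.4-GelMA/bFGF, 80.4, 58.9 and 102 CPM in 6.4-GelMA/bFGF and 56.4, 106 and 43.5 CPM in 6.4-GelMA/aFGF. The alkaline groups were even, at 63.3, 54.5 and 68.2 CPM in 8.4-GelMA/aFGF and 51.2, 67.0 and 70.1 CPM in 8.4-GelMA/bFGF. Control replicate 2, 7.4-GelMA/aFGF replicates 1 and 3 and 7.4-GelMA/bFGF replicate 3 held the 4 highest values, and in all 3 groups at least 1 other library was near the median of 70.1 CPM. The pooled SD within groups was 0.81 on the log2 scale, the widest of the 9 genes.

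For each of the 3 RNA sensors, control and 7.4-GelMA/aFGF had the highest means and 8.4-GelMA/bFGF the lowest. How many of all genes have this order was not computed. Dhx58, the sensor LGP2, stood at 91.1, 68.1 and 38.9 CPM in 7.4-GelMA/aFGF and 54.7, 76.1 and 53.9 CPM in control, and at 33.6, 17.9 and 19.0 CPM in 8.4-GelMA/bFGF. It was 34.6, 28.9 and 57.4 CPM in 6.4-GelMA/aFGF, 32.5, 68.6 and 34.0 CPM in 8.4-GelMA/aFGF, 27.0, 31.4 and 34.2 CPM in 6.4-GelMA/bFGF and 36.8, 45.6 and 32.1 CPM in 7.4-GelMA/bFGF. All 3 control libraries lay above all 9 libraries with bFGF. This contrast was noticed in these values and not tested, and the share of all genes separated this way was not computed. The same single libraries that were high for Irf7, 6.4-GelMA/aFGF replicate 3 and 8.4-GelMA/aFGF replicate 2, were high here.

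Ifih1, the sensor MDA5, ranged from 28.7 to 107 CPM, with group means from 37.5 ± 9.98 CPM (SD, n = 3) in 8.4-GelMA/bFGF to 75.8 ± 31.1 CPM in 7.4-GelMA/aFGF. Ddx58, the sensor RIG-I, ranged from 46.0 to 107 CPM, with means of 53.0 ± 4.80 CPM in 8.4-GelMA/bFGF, 84.6 ± 14.4 CPM in control and 84.0 ± 23.6 CPM in 7.4-GelMA/aFGF. For Ifih1 and Ddx58, 7.4-GelMA/aFGF replicate 3 lay below all 3 control libraries, while replicate 1 lay above them. Replicate 3 was the library that also held cartilage transcripts.

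Zbp1 gave the widest range of the sensors. Its level was 229, 122 and 102 CPM in 7.4-GelMA/aFGF, 93.1, 188 and 94.5 CPM in control and 58.2, 76.1 and 70.9 CPM in 7.4-GelMA/bFGF. It was 40.0, 49.7 and 105 CPM in 6.4-GelMA/aFGF, 47.4, 114 and 40.4 CPM in 8.4-GelMA/aFGF, 52.9, 58.3 and 57.7 CPM in 6.4-GelMA/bFGF and 55.8, 25.8 and 40.0 CPM in 8.4-GelMA/bFGF. The controls and 7.4-GelMA/aFGF lay above the whole of 7.4-GelMA/bFGF, and 6.4-GelMA/aFGF replicate 3 and 8.4-GelMA/aFGF replicate 2 reached into their range. Of all genes, 8.67% were wholly higher in 7.4-GelMA/aFGF than in 7.4-GelMA/bFGF. The pair of control and 7.4-GelMA/bFGF was noticed in the values, and its share over all genes was not computed.

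Rnf213, the ubiquitin ligase, was highest in 7.4-GelMA/aFGF at 818, 479.9 and 358 CPM. Control held 312, 443 and 254 CPM, 6.4-GelMA/aFGF 229.9, 246 and 237 CPM and 8.4-GelMA/aFGF 198, 357 and 172 CPM. The bFGF groups held 241, 244 and 197 CPM at pH 6.4, 225, 295 and 258 CPM at pH 7.4 and 238, 191 and 195 CPM at pH 8.4. All 3 libraries of 7.4-GelMA/aFGF lay above every library of the other hydrogel groups, by a margin of less than 1 CPM over 8.4-GelMA/aFGF replicate 2, and they overlapped control. The share of all genes with such a separation was not computed.

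Across the 9 genes, control and 7.4-GelMA/aFGF were the 2 highest group means for all 9, 7.4-GelMA/aFGF being first for 7 genes and control for Irf1 and Ddx58. The lowest mean belonged to 8.4-GelMA/bFGF for 8 genes and to 8.4-GelMA/aFGF for Irf1. Shares of all genes with the same groups highest or lowest were not computed. The 9 genes varied together from library to library, so their orders are not independent. Of 54 adjacent pairs of groups in these orders 3 did not overlap, where 2.23% of adjacent pairs over all genes did not, namely control against the third group for Stat2 and for Zbp1 and 6.4-GelMA/bFGF against 8.4-GelMA/bFGF for Irf9.

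Single libraries weighed on this order. Replicate 1 of 7.4-GelMA/aFGF held the highest level of 7 genes and control replicate 2 that of the other 2, Irf1 and Irf9, and both libraries were among the 3 highest for all 9 genes. At the other end, 8.4-GelMA/bFGF replicate 2, the library with steroid-synthesis transcripts, held the lowest level of 6 genes. With control replicate 2 left out, the control mean of Stat2 was 91.4 CPM and that of Irf1 73.7 CPM. With 7.4-GelMA/aFGF replicate 1 left out, that group's mean was 119 CPM for Stat2, 112 CPM for Zbp1 and 419 CPM for Rnf213, against medians of 69.0, 55.8 and 237 CPM over the 15 libraries of the other hydrogel groups. For Irf1, Irf7, Irf9, Ifih1, Ddx58 and Dhx58 the mean was 143, 238.5, 81.5, 60.4, 72.7 and 53.5 CPM. Medians of the 15 libraries for these genes were 67.0, 132, 65.4, 40.8, 61.1 and 33.6 CPM. For Ddx58 and Dhx58 the mean was below that of control without replicate 2, 76.3 and 54.3 CPM.

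**Figure D2:**
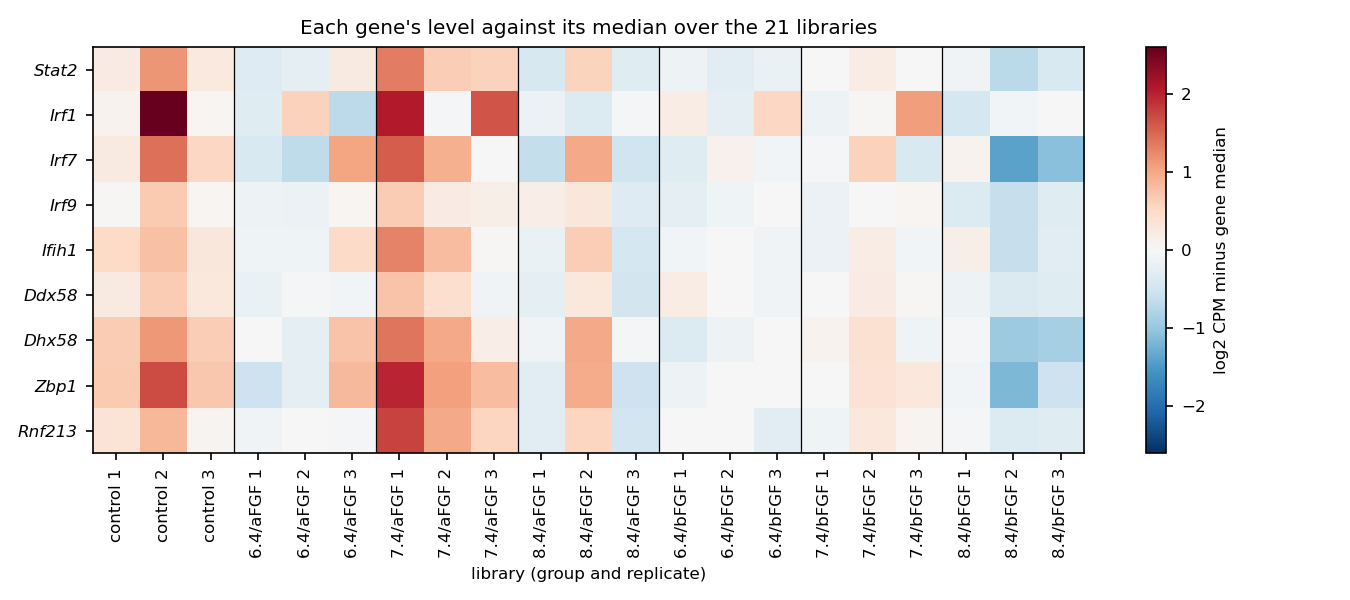
Level of each gene in each library as log2 CPM minus that gene's median over the 21 libraries (colour scale from blue, below the median, to red, above it); vertical lines part the groups. Many columns are of 1 colour from top to bottom, except the row of Irf1, which is blue in 8.4-GelMA/aFGF replicate 2, where the other 8 rows are red, and in 6.4-GelMA/aFGF replicate 3.

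In the test for any difference among the 7 groups, none of the 9 genes was called at an adjusted p under 0.05 (edgeR's quasi-likelihood test, Benjamini-Hochberg over 15811 genes), where 0.114% of all genes were. The smallest adjusted p was 0.0896 for Rnf213, followed by 0.118 for Stat2, 0.134 for Zbp1 and 0.143 for Dhx58, and the largest was 0.362 for Irf7. Before adjustment, 8 of the 9 genes, all except Irf7, had an edgeR p under 0.05, where 19.3% of all genes did. DESeq2 on the same counts called 6 of the 9 genes, Stat2, Irf1, Irf9, Dhx58, Zbp1 and Rnf213, where it called 12.7% of all genes. Without control replicate 2, edgeR called Stat2 (adjusted p = 0.0458) and Rnf213 (adjusted p = 0.0331), where 5.38% of all genes were called.

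The pH of the hydrogel was compared within each growth factor against pH 7.4, the pH nearest to neutral. With aFGF, all 9 genes were lower at pH 6.4 than at pH 7.4, by a median of -0.77 on the log2 scale, where 47.6% of all genes were lower. The largest differences were those of Irf1, -1.49 ± 0.57 (log2 fold change ± SE), Rnf213, -1.21 ± 0.29, Zbp1, -1.21 ± 0.45, and Stat2, -0.98 ± 0.25. Irf7 (-0.77 ± 0.55), Dhx58 (-0.71 ± 0.37) and Ifih1 (-0.68 ± 0.33) were intermediate, and Ddx58 (-0.48 ± 0.20) and Irf9 (-0.44 ± 0.16) were smallest. None was called in the edgeR fit, with every adjusted p between 0.832 and 0.837, and neither was any other of the 15019 genes tested (0% called). At an unadjusted p under 0.05 there were 5 of the 9, Stat2, Irf1, Irf9, Zbp1 and Rnf213, where 4.99% of all genes reached it. DESeq2 called 1, Rnf213 (adjusted p = 0.0437), where it called 0.121% of all genes.

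The 3 libraries of 6.4-GelMA/aFGF lay wholly below those of 7.4-GelMA/aFGF for Stat2, Irf9 and Rnf213, where 4.85% of all genes did the same. With 3 libraries against 3, the exact two-sided permutation test cannot go below p = 0.1, the value these 3 genes had. Leaving out 7.4-GelMA/aFGF replicate 1 kept all 9 genes lower and moved Irf7 to -0.36, Irf9 to -0.27, Ifih1 to -0.36, Ddx58 to -0.28, Dhx58 to -0.42 and Zbp1 to -0.79. Leaving out 6.4-GelMA/aFGF replicate 3 instead moved Irf7 to -1.49 and Dhx58 to -1.06.

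The alkaline aFGF hydrogel gave the same direction against the same 7.4-GelMA/aFGF libraries, so the 2 pH comparisons are not independent. All 9 genes were lower at pH 8.4, by a median of -0.82, where 50.2% of all genes were lower. Irf1 (-1.65 ± 0.49), Rnf213 (-1.19 ± 0.39), Zbp1 (-1.16 ± 0.48) and Stat2 (-0.88 ± 0.33) again differed most, and Irf9 (-0.30 ± 0.20) least. None of the 9 genes and no other gene was called in the edgeR fit (0% called, each adjusted p = 0.9999 for the 9). At an unadjusted p under 0.05 there were 4, Stat2, Irf1, Zbp1 and Rnf213, where 3.01% of all genes reached it, and DESeq2 called none of the 9 (0.0880% of all genes). The groups did not overlap for Stat2 and Rnf213, where 3.71% of all genes were wholly lower. Without 7.4-GelMA/aFGF replicate 3 and 8.4-GelMA/aFGF replicate 2, which held transcripts of other tissues, Irf1 was at -1.45 and the other 8 genes had wider differences, at -1.9996 for Zbp1, -1.85 for Irf7, -1.81 for Rnf213, -1.40 for Stat2, -1.38 for Ifih1, -1.26 for Dhx58, -0.95 for Ddx58 and -0.52 for Irf9. Without 7.4-GelMA/aFGF replicate 1 they were narrower, at -0.75 for Zbp1, -0.40 for Irf7, -0.40 for Ifih1, -0.33 for Ddx58, -0.26 for Dhx58 and -0.13 for Irf9. None was called either way.

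With bFGF, all 9 genes were lower at pH 6.4 than at pH 7.4 by a median of -0.18, where 48.8% of all genes were lower, and none of the 9 was called by edgeR (0% of all genes called) or by DESeq2 (0.748% of all genes). Stat2 was the 1 gene with an unadjusted p under 0.05, where 8.89% of all genes reached it, and its difference was -0.24 ± 0.09 with groups that did not overlap, as for 8.07% of all genes. Dhx58 (-0.29 ± 0.16) and Zbp1 (-0.26 ± 0.12) were next, and the differences of Irf9 (-0.07 ± 0.09), Ifih1 (-0.04 ± 0.11) and Ddx58 (-0.03 ± 0.11) were smaller than their SE. The direction depended on single libraries for 4 genes: without 7.4-GelMA/bFGF replicate 2 it turned for Irf7 (0.16), Ifih1 (0.080) and Ddx58 (0.050), and without 7.4-GelMA/bFGF replicate 3 for Irf1 (0.26).

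At pH 8.4 against pH 7.4 with bFGF, the 9 genes were lower by a median of -0.42, where 7547 of 15092 genes were lower, and none of the 9 was called (0% of all genes called, adjusted p from 0.861 to 0.932 in the edgeR fit), nor by DESeq2 (0.212% of all genes). Irf7 (-0.75 ± 0.45), Zbp1 (-0.73 ± 0.28) and Dhx58 (-0.68 ± 0.28) differed most. An unadjusted p under 0.05 was reached by 5, Stat2, Irf9, Ddx58, Dhx58 and Zbp1, where 5.72% of all genes reached it. The groups did not overlap for Stat2, Irf9, Ddx58 and Zbp1, where 7.17% of all genes were wholly lower. Without 8.4-GelMA/bFGF replicate 2, the library with steroid-synthesis transcripts, all 9 remained lower, at -0.48 for Irf7, -0.49 for Zbp1, -0.51 for Dhx58, -0.28 for Stat2 and -0.04 for Ifih1.

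**Figure D3:**
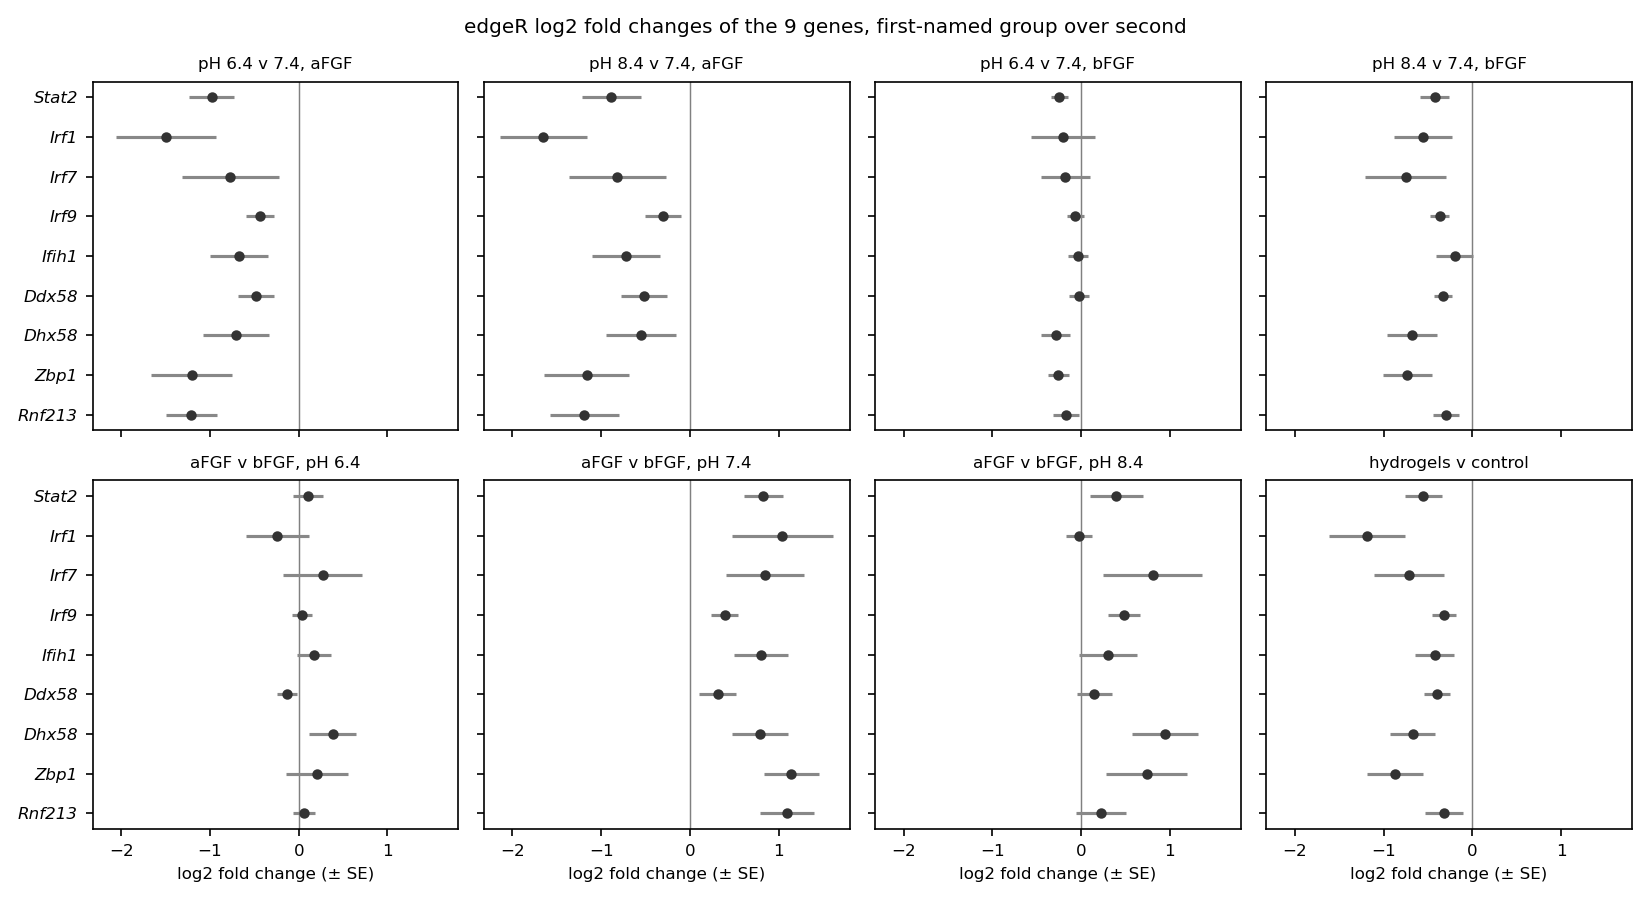
Log2 fold changes (± SE, edgeR) of the 9 genes in 8 comparisons, each panel giving the first-named group over the second; all axes are the same and the vertical line marks no difference. All 9 points lie left of the line in the 4 pH panels and against control, and right of it for aFGF against bFGF at pH 7.4; none was called, and panels that share a group are not independent.

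The growth factors were then compared at each pH. At pH 7.4 all 9 genes were higher with aFGF than with bFGF, by a median of 0.83, where 48.3% of all genes were higher. Zbp1 (1.14 ± 0.31), Rnf213 (1.09 ± 0.31) and Irf1 (1.04 ± 0.57) showed more than 1 log2 unit, Irf7 (0.85 ± 0.44), Stat2 (0.83 ± 0.21), Ifih1 (0.80 ± 0.30) and Dhx58 (0.79 ± 0.31) somewhat less, and Irf9 (0.39 ± 0.15) and Ddx58 (0.31 ± 0.21) least. None of the 9 genes was called in the edgeR fit (0% of all genes called, adjusted p from 0.351 to 0.524). An unadjusted p under 0.05 was reached by 6, Stat2, Irf9, Ifih1, Dhx58, Zbp1 and Rnf213, where 13.0% of all genes reached it. DESeq2 called 3, Stat2 (adjusted p = 0.0371), Zbp1 (adjusted p = 0.0307) and Rnf213 (adjusted p = 0.0354), where it called 1.67% of all genes. The groups did not overlap for Stat2, Irf9, Zbp1 and Rnf213, where 8.67% of all genes were wholly higher with aFGF. Without 7.4-GelMA/aFGF replicate 1 all 9 were smaller in the same direction and none was called, with 0.56 for Stat2, 0.62 for Irf1, 0.43 for Irf7, 0.22 for Irf9, 0.47 for Ifih1, 0.11 for Ddx58, 0.49 for Dhx58, 0.72 for Zbp1 and 0.70 for Rnf213. Without replicate 3, which held cartilage transcripts, Ddx58 was at 0.50.

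At pH 6.4 with aFGF, 7 genes were higher and 2, Irf1 (-0.24 ± 0.35) and Ddx58 (-0.13 ± 0.11), lower than with bFGF, with a median of 0.10, where 51.8% of all genes were higher and 48.2% lower. None was called by edgeR (0% of all genes called) or DESeq2 (0.755% of all genes), none had an unadjusted edgeR p under 0.05, where 8.16% of all genes did, and the groups overlapped for all 9, as they did for all but 14.8% of genes. Dhx58 (0.38 ± 0.27) was the largest, and the values of Irf7 in 6.4-GelMA/aFGF replicate 3 lay above all of 6.4-GelMA/bFGF while replicates 1 and 2 lay below all of it. Without 6.4-GelMA/aFGF replicate 3, 5 of the 7 higher genes turned, Irf7 to -0.47, Zbp1 to -0.35, Stat2 to -0.12, Ifih1 to -0.087 and Irf9 to -0.059.

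At pH 8.4, 8 genes were higher with aFGF, with a median of 0.40 over the 9, where 48.6% of all genes were higher and 51.4% lower, and Irf1 differed by less than its SE (-0.02 ± 0.15). None of the 9 was called by edgeR, where 0.00665% of all genes were, or by DESeq2, where 6.25% were. The groups overlapped for all 9, as they did for all but 27.7% of genes. Irf9 (0.49 ± 0.18) and Dhx58 (0.94 ± 0.37) had an unadjusted p under 0.05, where 21.1% of all genes did. Both groups held a library with transcripts of other tissues, 8.4-GelMA/aFGF replicate 2, high for 8 of the genes, and 8.4-GelMA/bFGF replicate 2, low for most. Without both, the direction turned for 7 of the 9 genes, with Rnf213 at -0.23, Ifih1 at -0.26, Irf7 at -0.19, Ddx58 at -0.15, Stat2 at -0.14, Zbp1 at -0.13 and Irf1 at 0.10, while Irf9 (0.27) and Dhx58 (0.33) stayed higher with aFGF. Without 8.4-GelMA/aFGF replicate 2 alone, Rnf213 (-0.19), Ifih1 (-0.11), Ddx58 (-0.11), Stat2 (-0.018) and Irf1 (0.042) turned.

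Whether the step from pH 7.4 to pH 6.4 differed between the growth factors was tested as an interaction in 1 fit of the 12 libraries. All 9 point estimates were more negative with aFGF, by a median of -0.64, where 52.0% of all genes had that sign, and none was called (0% of all genes called, adjusted p from 0.804 to 0.891 in the edgeR fit), nor by DESeq2 (0.153% of all genes). Rnf213 (-1.05 ± 0.34) and Stat2 (-0.74 ± 0.29) had an unadjusted p under 0.05, where 6.09% of all genes did. Irf1 had the widest estimate, -1.30 ± 0.73. Without 7.4-GelMA/aFGF replicate 1 the estimates were -0.66 for Rnf213, -0.47 for Stat2, -0.53 for Zbp1, -0.32 for Ifih1, -0.26 for Ddx58, -0.20 for Irf9, -0.18 for Irf7 and -0.13 for Dhx58. Without replicate 3 of that group, Irf7 was at -0.90 and Dhx58 at -0.68, and none was called in either fit.

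Against control, the mean of the 6 hydrogel groups was lower for all 9 genes, by a median of -0.55, where 53.4% of all genes were lower. Irf1 (-1.19 ± 0.42), Zbp1 (-0.87 ± 0.31), Irf7 (-0.71 ± 0.39), Dhx58 (-0.67 ± 0.25) and Stat2 (-0.55 ± 0.21) differed most. None of the 9 was called in the edgeR fit, where 0.00632% of all genes were, the smallest adjusted p being 0.194 for Irf1, and none was called by DESeq2, where 1.12% of all genes were. An unadjusted p under 0.05 was reached by 6, Stat2, Irf1, Irf9, Ddx58, Dhx58 and Zbp1, where 16.7% of all genes reached it, and the groups overlapped for all 9, as they did for all but 0.607% of genes.

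Control replicate 2 weighed on this contrast. Without it Irf1 turned to 0.22, and the other 8 genes stayed lower at smaller values, -0.18 for Stat2, -0.28 for Irf7, -0.07 for Irf9, -0.29 for Ifih1, -0.25 for Ddx58, -0.49 for Dhx58, -0.45 for Zbp1 and -0.07 for Rnf213. None was called without that library, where 1189 of 16069 genes were. Among the hydrogel groups, the mean of 7.4-GelMA/aFGF was itself above the control mean for 7 of the 9 genes, and the share over all genes was not computed.

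The 9 genes varied together from library to library. Over the 36 pairs of genes, Pearson's r of log2 CPM across the 21 libraries ran from 0.34 (Irf1 and Irf7) to 0.97 (Stat2 and Zbp1), with a median of 0.87. The libraries share their groups, and with group means removed the median was 0.79. Leaving out the 2 libraries farthest from the median, 7.4-GelMA/aFGF replicate 1 and control replicate 2, gave a median of 0.77. These values describe the genes in these libraries and were not tested.

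Irf1 was the exception. Its mean r with the other 8 genes was 0.51, while each of the others had a mean between 0.81 and 0.88. Within groups its mean r was 0.19, against 0.71 to 0.79 for the others. Without the 2 farthest libraries, r was -0.24 between Irf1 and Irf7 and 0.20 between Irf1 and Stat2. The ratio of Irf1 to Irf7 in CPM ran from 0.131 in 6.4-GelMA/aFGF replicate 3 and 0.168 in 8.4-GelMA/aFGF replicate 2 to 1.33 in 7.4-GelMA/aFGF replicate 3 and 1.20 in 7.4-GelMA/bFGF replicate 3, so a library high for one of the transcription factors could be low for the other.

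**Figure D4:**
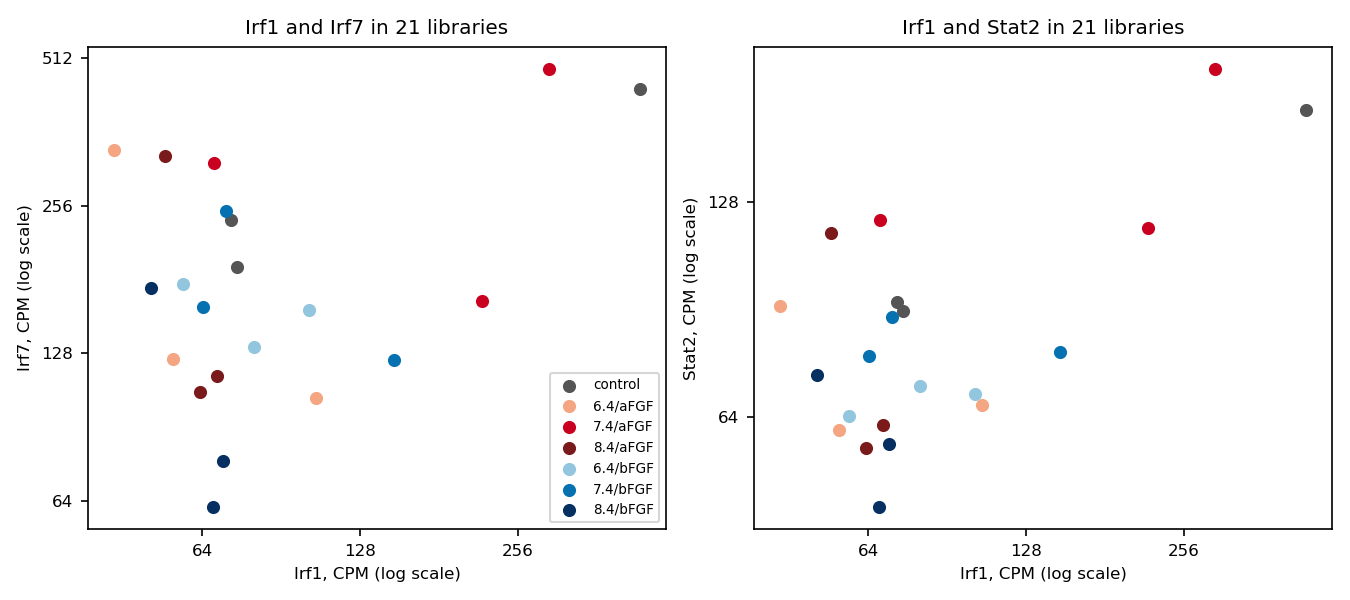
Irf1 against Irf7 (left) and against Stat2 (right) in the 21 libraries, in CPM on log2-spaced axes; colours are groups, named without "GelMA". On the left 2 libraries lie at the top right and the others scatter (r = 0.34 over all 21), and on the right the same 2 libraries lie at the top right with the others mostly below them (r = 0.65).

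Among genes outside the 9, those with the highest mean r with the set were Herc6, Parp12, Znfx1, Sp110, Isg15, Sp100, Trafd1, Rsad2, Parp9 and Oasl2, with means from 0.88 down to 0.86 over 21 libraries. Isg15 is a ubiquitin-like protein, Rsad2 the antiviral enzyme viperin, and Oasl2 a relative of the oligoadenylate synthetases. The median over the 15802 genes ranked was -0.00409, and 54 genes, or 0.342%, exceeded 0.8. Of the 10 genes, 6 were also among the 10 nearest with group means removed.

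Irf1 had different neighbours, looked up after its values were seen. Among the genes nearest to it were Parp10 (r = 0.92), Gbp2, Gbp5, Tap1, Gbp4, Tgtp1, Gbp8, Gbp7 and Tap2 (r = 0.88). The Gbp genes encode guanylate-binding proteins, GTPases of cell-autonomous immunity, and Tap1 and Tap2 form the transporter that loads peptides onto MHC class I. Without control replicate 2 and 7.4-GelMA/aFGF replicate 1, r with Irf1 was 0.82 for Parp10 and 0.86 for Gbp2.

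Of the interferon ligands read here, Ifnb1, the type I interferon beta, totalled 12 counts in 5 of the 21 libraries, Ifnk 11 counts in 4 and Ifne 6 counts in 3, and the alpha and lambda interferons were not analysed here. Interferon gamma (Ifng), made by T and NK cells, was the 1 ligand with enough counts to test. It held 157 counts in control replicate 2, 109 in 7.4-GelMA/aFGF replicate 1 and 31 in 7.4-GelMA/aFGF replicate 3, and at most 13 in any other library. These are 3 of the 4 libraries with the highest Irf1. Across 21 libraries r between Ifng and Irf1 was 0.83, and 0.51 without the first 2 of those libraries; for Irf7 it was 0.54 and 0.12. Ifng was not called among the 7 groups (edgeR adjusted p = 0.125).

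The rest of the pathway was read from lists by role. The lists were chosen with earlier results of these data known, and none of their genes was called among the 7 groups or in any comparison by edgeR. Of the receptors, Ifnar1, a chain of the type I interferon receptor, had group means from 159 ± 7.63 CPM (SD, n = 3) in 8.4-GelMA/bFGF to 185 ± 28.05 CPM in 6.4-GelMA/bFGF, and 0 of 6 receptors and 0 of 3 Janus kinases had an unadjusted p under 0.05 among the 7 groups, where 19.3% of all genes had.

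Of 6 other IRFs, 3 had an unadjusted p under 0.05, Irf2, Irf4 and Irf5, beside 19.3% of all genes. Irf5, which acts below Toll-like receptors, ran from 56.7 ± 4.10 CPM (SD, n = 3) in 8.4-GelMA/bFGF to 132 ± 31.8 CPM in 7.4-GelMA/aFGF. Irf3, the constitutive factor that is activated by phosphorylation, had group means from 40.1 ± 1.03 CPM in 6.4-GelMA/aFGF to 45.6 ± 3.44 CPM in 8.4-GelMA/aFGF, and its mean r with the 9 genes was -0.08.

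Of 12 other nucleic acid sensors, 7 had an unadjusted p under 0.05, beside 19.3% of all genes. Tlr8, an endosomal receptor of single-stranded RNA, had the smallest adjusted p of all listed genes, 0.0631 in the edgeR fit. Its order differed from that of the 9 genes: 8.4-GelMA/aFGF (147 ± 35.2 CPM; SD, n = 3) and 7.4-GelMA/aFGF (147 ± 40.0 CPM) were highest, and control was at 72.6 ± 8.73 CPM. Ddx60, a helicase linked to RIG-I signalling, was highest in control, at 39.2 ± 4.34 CPM, and next in 7.4-GelMA/aFGF, at 33.3 ± 9.99 CPM.

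Below the sensors, 6 of 12 adaptors and kinases had an unadjusted p under 0.05, beside 19.3% of all genes. Mavs, the mitochondrial adaptor through which RIG-I and MDA5 signal, held 38.1, 33.2 and 41.8 CPM in control and 24.8, 26.5 and 28.04 CPM in 7.4-GelMA/aFGF. The control libraries lay above those of 7.4-GelMA/aFGF without overlap, unlike those of the sensors themselves. This pair of groups was noticed in the values, and the share of all genes separated in it was not computed. The mean r of Mavs with the 9 genes was -0.05. Of 12 inhibitors, 5 had an unadjusted p under 0.05, beside the same 19.3%; Samhd1, which depletes nucleotides, stood at 630.5 ± 225 CPM (SD, n = 3) in 7.4-GelMA/aFGF and 245 ± 33.9 CPM in 8.4-GelMA/bFGF. Mean r with the 9 genes was 0.84 for Eif2ak2, the double-stranded RNA kinase PKR, 0.87 for Isg15 and 0.81 for Usp18, the feedback inhibitor of the type I receptor.

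**Figure D5:**
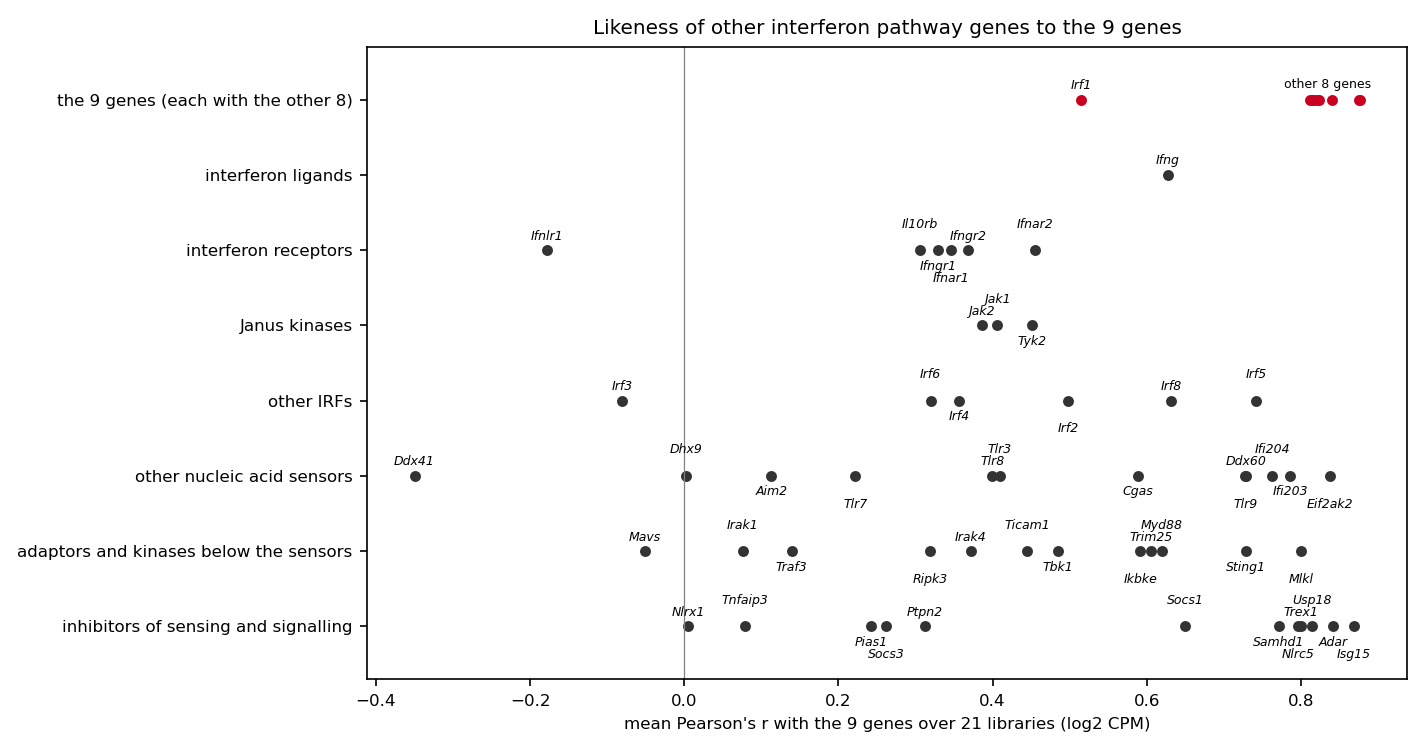
Mean Pearson's r of log2 CPM over 21 libraries between each pathway gene and the 9 genes, by role; the top row gives each of the 9 genes with the other 8. Interferon-inducible genes such as Isg15 (0.87) and Eif2ak2 (0.84) lie at the right with 8 of the 9 genes, receptors and Janus kinases lie below 0.5, and Irf3 (-0.08), Mavs (-0.05) and Ddx41 (-0.35) lie at or left of 0.

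Markers of some immune cells varied with the 9 genes. The summed level of 7 T and NK cell markers was 169 CPM in 7.4-GelMA/aFGF replicate 1 and 89.1 CPM in control replicate 2, the 2 libraries highest for the 9 genes, and 24.0 to 52.0 CPM in the other 19. The 4 monocyte markers summed to 1263 CPM and 1005 CPM in the same 2 libraries, against 393 to 759 CPM elsewhere. With the mean log2 CPM of the 9 genes, r was 0.82 for the T and NK cell list and 0.82 for the monocyte list, and 0.89 and 0.74 with group means removed. Spearman's rank correlation, on which single far libraries weigh less, was 0.59 and 0.68. Cd4 had the highest median of the T and NK cell markers, 16.5 CPM, while those of Cd3e and Cd8a were 0.895 and 0.949 CPM. Pearson's r was 0.57 for 8 plasmacytoid dendritic cell markers, 0.53 for macrophage markers and -0.22 for neutrophil markers. The plasmacytoid list was carried by Ly6d, Bst2 and Tcf4, with medians of 185, 134 and 102 CPM, which other cells also express, while Siglech, Ccr9, Spib and Klk1 had medians from 0.647 to 2.48 CPM. No listed marker of these types was at 0 in every library, and the part of cell numbers in the levels of the 9 genes was not tested.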

How the data were processed

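RNA was extracted with TRIzol from day 4 wounds and sequenced as stranded mRNA libraries (TruSeq Stranded mRNA kit), 3 in each of 7 groups. The authors deposited, per gene and library, counts of fragments (not normalized) and FPKM values. The submitters' processing notes name the genome build GRCm39; aligner, counter and annotation are not given in the sources used here. In each library the deposited FPKM divided by the count gave the same gene length, so both come from the same counts.

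The 9 genes and the pathway and marker lists were chosen with earlier results of these data known. The main test was edgeR's quasi-likelihood test (edgeR 4.0.16, R 4.3.3; TMM, genes kept by filterByExpr) on all genes, with Benjamini-Hochberg adjustment. Called means an adjusted p under 0.05 and, except among the 7 groups, a log2 fold change beyond 0.58. Pairwise fits used the compared libraries, the interaction 12 libraries, and the fits of 7 groups and of hydrogels against control all 21. SE was the log2 fold change over the root of F. Log2 CPM used a prior count of 2. Genes were ranked by likeness as the mean Pearson's r of log2 CPM with the 9 genes, and the 10 highest were named. Genes from the pathway lists were named by role or by small p. 1 gene is not reported here. Single values were also compared by exact two-sided permutation tests.

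Alternatives were DESeq2 1.42.0 (independent filtering at 0.05), relative log expression (RLE) normalization, other filters, limma 3.58.1 on log2(FPKM + 1) or log2(FPKM + 0.1), a replicate block, leaving out each library, and leaving out the 3 libraries with transcripts of other tissues. Leaving out the 2 highest libraries was chosen after seeing the data. The DESeq2 and limma fits were not tested on simulated counts. Replicates 1, 2 and 3 of different groups were not treated as pairs in the main test. Over 21 same-numbered pairs, deviations from group means correlated at -0.287 to 0.248, and 5 pairs were over 0.1. Libraries of unlike number were not compared, so these values cannot show whether the numbers pair. Depth limits precision little for these genes, and intervals of counting error do not cover differences between mice.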

Additional observations from a re-analysis of the deposited data

How the results depend on the processing

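None of the 9 genes was called under edgeR with RLE normalization, without a filter, with at least 10 counts in every library, with a fit of all 21 libraries, or by limma on FPKM values. DESeq2 called 6 of the 9 among the 7 groups, 1 for pH 6.4 against 7.4 with aFGF and 3 for aFGF against bFGF at pH 7.4; the cause was not tested. With single libraries left out, 0 to 2 were called among the 7 groups and 0 to 0 in each other comparison.

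Over all genes, the 7 groups gave 18 calls, against 2050 by DESeq2, 10 with the replicate block, 12 without a filter, 3 without the libraries with transcripts of other tissues and 451 without the 2 highest libraries, an alternative chosen after seeing the data, and 7 to 864 when each library was left out. Hydrogels against control gave 1 call, against 170 by DESeq2, 5 with at least 10 counts in every library, 2 with the replicate block or with no fold threshold, 0 without the libraries with transcripts of other tissues, 1197 without the 2 highest libraries, and 0 to 1189 when each library was left out. For aFGF against bFGF at pH 8.4, 1 gene was called, against 955 by DESeq2, 10 in the fit of all 21 libraries, 0 with the replicate block or without the libraries with transcripts of other tissues, and 0 to 172 when each library was left out. At pH 7.4 the count was 0, against 264 by DESeq2, 12 in the fit of all 21 libraries, 1 by limma on log2(FPKM + 0.1) and without the libraries with transcripts of other tissues, and 0 to 1 when each library was left out. DESeq2 gave 20, 13, 113, 28, 119 and 28 calls where edgeR gave 0, for pH 6.4 and 8.4 against 7.4 with aFGF, the same with bFGF, aFGF against bFGF at pH 6.4 and the interaction, and pH 6.4 against 7.4 with bFGF gave 0 to 278 when each library was left out.

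The replicate numbers share no stated litter, batch or day. With the replicate block, 0 of the 9 genes were called in every comparison.

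Of 873 values of single genes with all libraries or without the odd ones, 11 reversed, 10 of them for aFGF against bFGF at pH 8.4. Without the libraries with transcripts of other tissues these were -0.14 for Stat2, 0.10 for Irf1, -0.19 for Irf7, -0.26 for Ifih1, -0.15 for Ddx58, -0.13 for Zbp1 and -0.23 for Rnf213. Ddx58 was -0.020 by limma on log2(FPKM + 1), with or without the filter, and -0.024 on log2(FPKM + 0.1). Irf1 for hydrogels against control was 0.14 without the 2 highest libraries. Leaving out each library reversed 20 of 675 values. The ranges for pH 6.4 against 7.4 with bFGF were -0.41 to 0.26 for Irf1, -0.39 to 0.16 for Irf7, -0.10 to 0.080 for Ifih1 and -0.11 to 0.050 for Ddx58. Those for aFGF against bFGF at pH 6.4 were -0.12 to 0.20 for Stat2, -0.47 to 0.54 for Irf7, -0.059 to 0.065 for Irf9, -0.087 to 0.26 for Ifih1, -0.35 to 0.44 for Zbp1 and -0.056 to 0.10 for Rnf213. At pH 8.4 they were -0.018 to 0.56 for Stat2, -0.17 to 0.070 for Irf1, -0.11 to 0.52 for Ifih1, -0.11 to 0.31 for Ddx58 and -0.19 to 0.43 for Rnf213, and for hydrogels against control -1.58 to 0.22 for Irf1. With 3 libraries a group, single libraries weigh more than sequencing depth.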

Other observations

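Markers of other tissue parts also varied between wounds. The summed level of 5 skeletal muscle markers ran from 201 to 12445 CPM, highest in 6.4-GelMA/aFGF replicate 3, with r = 0.12 against the mean log2 CPM of the 9 genes over 21 libraries. The summed level of 4 adipocyte markers ran from 76.8 to 2006 CPM, highest in control replicate 1 (r = -0.10), and that of 6 neutrophil markers from 710.5 to 12233 CPM, highest in 7.4-GelMA/bFGF replicate 3. The 4 endothelial markers had r = -0.45. These correlations describe libraries that share groups and were not tested.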
